A study of Mus musculus with 10 samples.

Results

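*Atp1b2* and *Kcnv2*, the genes of a sodium pump subunit and a potassium channel subunit of the photoreceptor inner segment, were followed in the retina after bright light. They were chosen by name, as the 2 rows carrying these symbols among the 54532 genes of the expression table, and both were measured in all retinas. RNA-seq covered the neural retina of BALB/c mice aged 2 months, an albino strain without the eye pigment that screens light, in 10 samples. Per the labels, mice of both groups first spent 12 hr in the dark. They then spent 1 day under normal light of 200 lux (NL, 5 retinas) or under high-intensity light of 15000 lux (LD, 5 retinas). No allele, transgene or drug was part of either group. The comparison served to look for factors that light damage induces in the eye.

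In darkness, cations enter the outer segment of a rod or cone through cyclic nucleotide-gated channels and potassium leaves through channels of the inner segment, so that a current circulates along the cell. The Na,K-ATPase of the inner segment, a pump with a catalytic alpha and a glycosylated beta subunit, restores both gradients at a high cost in ATP. *Atp1b2* encodes the beta2 subunit, also known as the adhesion molecule on glia, which the alpha subunit needs to reach the cell surface. *Kcnv2* encodes a modifier subunit that makes no channel of its own but joins and alters channels built from other subunits. In humans, loss of KCNV2 causes a cone dystrophy with an abnormally large rod response.

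*Atp1b2* (ENSMUSG00000041329) lies on the minus strand of chromosome 11 from 69599736 to 69605942 (GRCm38), and its first annotated transcript has 7 exons. *Kcnv2* (ENSMUSG00000047298) lies on the plus strand of chromosome 19 from 27322588 to 27337179 and has 2 exons. In GENCODE release M21, 0 other genes overlap either of them, and the nearest gene is 7863 bases from *Atp1b2* (*Trp53*) and 7570 bases from *Kcnv2* (*AC124973.2*). No sequence is shown, since gene totals do not separate transcripts or sites.

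The NL libraries held 21343389 to 26832535 reads, the LD libraries 18965090 to 23378090. Of the 20 pairs of retinas within a group, 3 were closer than the others (NL-5 with NL-7, LD-1 with LD-7, LD-4 with LD-6), at a chi-square per gene of 2.65 to 3.65 against 12.2 to 43.4. Whether such a pair is 1 mouse was not tested. Of the cell type marker lists, the 10 rod genes were summed to 7929 to 9998 FPKM (fragments per kilobase of gene, scaled to library size) under NL and 1102 to 2186 FPKM after LD, and all 10 fell more than 2-fold. Of 9 cone genes, 4 fell more than 2-fold, with sums of 322 to 500.1 FPKM under NL and 56.1 to 181 FPKM after LD. For the 6 microglia and macrophage genes the sums were 14.3 to 25.5 and 36.1 to 81.6 FPKM, and 5 of the 6 rose more than 2-fold. Of the 6 Müller glia genes 1 passed, *Glul*, which fell, with sums of 1048 to 1281 and 506 to 714 FPKM. The lower sum came from *Glul*, at means of 711 and 165 FPKM, and the median log2 fold change of the 6 was 0.03. At an adjusted p under 0.01, 0 genes passed on the lists for bipolar (6 genes), amacrine (5), ganglion (6), pigment epithelium (6) and blood cells (3 of 4 tested), 1 of 4 horizontal cell genes and 1 of 4 endothelial genes rose, and 1 blood gene was at 0 in all retinas. Among the 24508 genes tested, 2.37% fell and 4.13% rose more than 2-fold at this adjusted p. Without the minimum fold, 7.74% fell and 9.30% rose. On such short lists, 0 or 1 passing genes cannot show whether a cell type changed. From the RNA of whole retinas alone, fewer photoreceptors and less RNA per photoreceptor cannot be told apart. By histology, the paper saw no obvious degeneration in BALB/c retinas after 1 day of this light, but did after longer exposure. The number of photoreceptors in the sequenced retinas was not tested.

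Both genes were lower after LD, *Kcnv2* by far the more. *Kcnv2* measured 128, 114, 108, 101 and 138 FPKM in NL-1, NL-4, NL-5, NL-7 and NL-8. In LD-1, LD-4, LD-6, LD-7 and LD-8 it measured 44.3, 19.7, 20.1, 38.7 and 35.2 FPKM. Every LD retina was far below every NL retina, and LD-4 and LD-6 were the lowest of all. The mean fell from 118 ± 15.0 to 31.6 ± 11.2 FPKM (SD, n = 5 each), to 26.9% of the NL mean. On the log2 scale the change was -1.96 ± 0.23 (standard error), with an adjusted p of 1.14e-04 by limma and the Benjamini-Hochberg method, and the exact permutation test gave p = 0.00794 (two-sided), the smallest that groups of 5 allow. *Kcnv2* rested on 10910 to 18141 reads in NL and 2044 to 5522 reads in LD libraries, so that counting error was small beside the spread between retinas.

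*Atp1b2*, in the same order of retinas, measured 333, 311, 316, 304 and 308 FPKM under NL. After LD it measured 262, 195, 200 (199.5), 253 and 232 FPKM. Again the groups did not overlap and LD-4 and LD-6 were lowest. The highest LD retina was at 262 and the lowest NL retina at 304 FPKM. The mean fell from 314 ± 11.4 to 228 ± 30.4 FPKM (SD, n = 5 each), to 72.6% of the NL mean. On the log2 scale this was -0.47 ± 0.09 (standard error), with an adjusted p of 0.00347 by limma and an exact permutation p of 0.00794, past the adjusted p of 0.01 but short of the 2-fold change that the study also required. This fall depended on the scaling. With the scaling factor of each library taken out, which raised the median log2 fold change of all genes by 0.12, *Atp1b2* changed by -0.34 (adjusted p = 0.0139), with TPM by -0.37 (adjusted p = 0.0141) and with quantile normalization by -0.24 (adjusted p = 0.0663), among alternatives whose adjusted p ran from 6.66e-04 to 0.0663. Its LD retinas stayed below its NL retinas both without the library factors (at most 273 against at least 294 FPKM) and as TPM (at most 272 against at least 294).

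**Figure D1:**
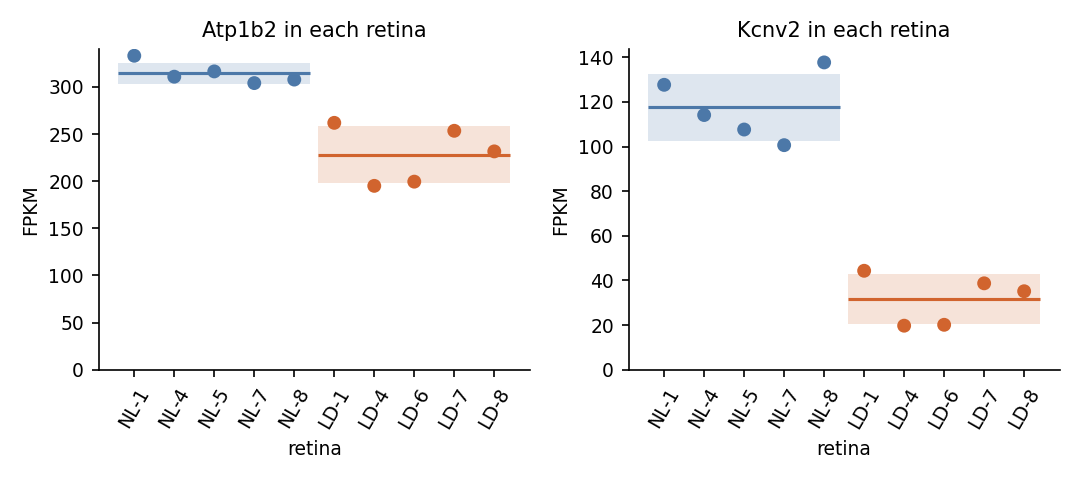
FPKM of *Atp1b2* (left) and *Kcnv2* (right) in each of the 10 retinas, NL in blue and LD in orange, with the group mean as a line and 1 SD as a band. LD values lie below all NL values in both genes, at 195 to 262 against 304 to 333 FPKM for *Atp1b2* and at 19.7 to 44.3 against 101 to 138 FPKM for *Kcnv2*.

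Of the 2 genes, 1 (*Kcnv2*) thus met both thresholds of the study, an adjusted p below 0.01 and more than a 2-fold fall, and both were lower at the adjusted p alone. Over the 24508 genes tested these shares were 2.37% and 7.74%, and in 10.6% of all genes every LD retina lay below every NL retina. The fall of *Kcnv2* was the 169th largest of the 24508 log2 fold changes and that of *Atp1b2* the 3463rd. By level, *Atp1b2* was the 49th most abundant gene per length under NL and the 65th after LD, whereas *Kcnv2* went from the 204th to the 1440th. With the 3 close pairs of retinas averaged, *Kcnv2* stayed at -1.96 and its adjusted p was 0.00168 (1.58e-05 to 0.00476 across all alternatives), while *Atp1b2* at -0.47 had an adjusted p of 0.0232. Without NL-1 or without NL-5 the adjusted p of *Atp1b2* was 0.0106 and 0.0102.

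The spread between retinas also differed between the groups. The coefficient of variation of *Kcnv2* was 12.8% under NL and 35.3% after LD, and that of *Atp1b2* was 3.61% and 13.3%. After LD both genes had the same order of retinas, LD-1 highest, then LD-7, LD-8, LD-6 and LD-4. LD-1 with LD-7 and LD-4 with LD-6 were among the close pairs, so these retinas may not be independent. Under NL the orders differed, with *Atp1b2* highest in NL-1 and *Kcnv2* in NL-8, and NL-7 lowest for both.

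The change of a gene relative to another within the same retina does not depend on the scaling of the libraries, and 7 such differences were compared between the groups by two-sided exact permutation tests, with p-values adjusted over the 7, of which 4 are given. The level of *Atp1b2* was 2.24 to 3.02 times that of *Kcnv2* under NL and 5.91 to 9.91 times after LD. On the log2 scale, *Kcnv2* minus *Atp1b2* went from -1.43 ± 0.17 to -2.92 ± 0.36 (SD, n = 5 each), a difference of -1.49 (95% interval from the permutation test -1.92 to -1.11, exact p = 0.00794, adjusted p = 0.0139). The fall of *Kcnv2* was therefore larger than that of *Atp1b2* in excess of the spread between retinas.

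**Figure D2:**
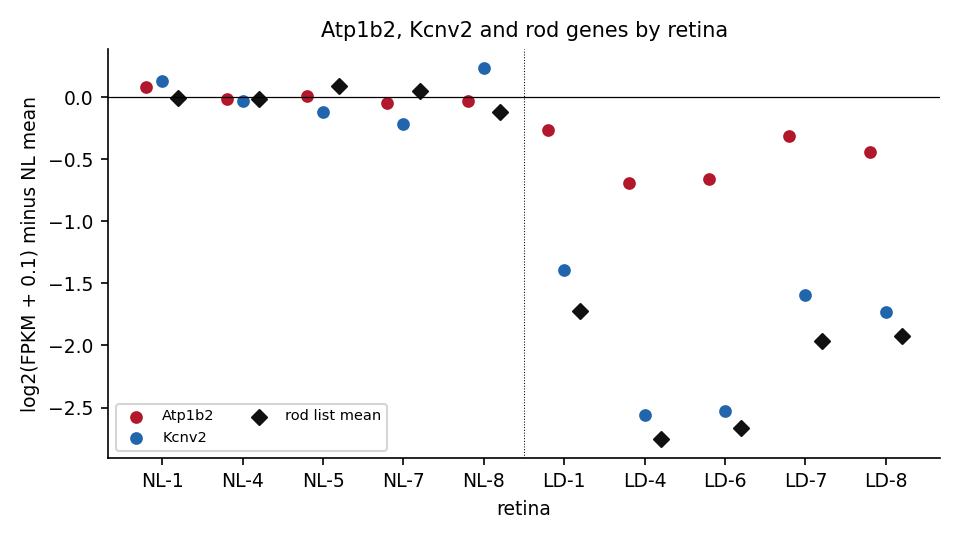
Log2(FPKM + 0.1) of *Atp1b2*, *Kcnv2* and the mean of the 10 rod genes in each retina, relative to the NL mean of each. In the LD retinas *Atp1b2* lies closest to 0 and *Kcnv2* lies near the rod genes, with LD-4 and LD-6 lowest for all 3.

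Both genes were also set against a list of rod genes. The 10 genes of the rod list had log2 fold changes of -2.74 to -1.26, with a median of -2.26. *Gnat1*, the alpha subunit of rod transducin, fell from 2874 ± 260.4 to 464 ± 174 FPKM. *Pde6a*, a catalytic subunit of the rod phosphodiesterase, fell least, from 468 ± 58.4 to 202 ± 63.1 FPKM (SD, n = 5 each). The change of *Kcnv2* lay within their range. Its log2 level minus the mean of the rod genes was -1.87 ± 0.26 under NL and -1.62 ± 0.10 after LD, and the difference of 0.25 had an interval of -0.05 to 0.52 (exact permutation p = 0.0952, adjusted p = 0.120). Without NL-8, where *Kcnv2* was highest, this difference was 0.33 with an adjusted p of 0.0444. *Atp1b2* did not follow them. It went from 0.44 below to 1.30 above the rod mean (-0.44 ± 0.09 to 1.30 ± 0.29), a difference of 1.73 (interval 1.43 to 2.09, exact permutation p = 0.00794, adjusted p = 0.0139). The RNA came from the whole neural retina, and which cells held that of *Atp1b2* was not tested.

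**Figure D3:**
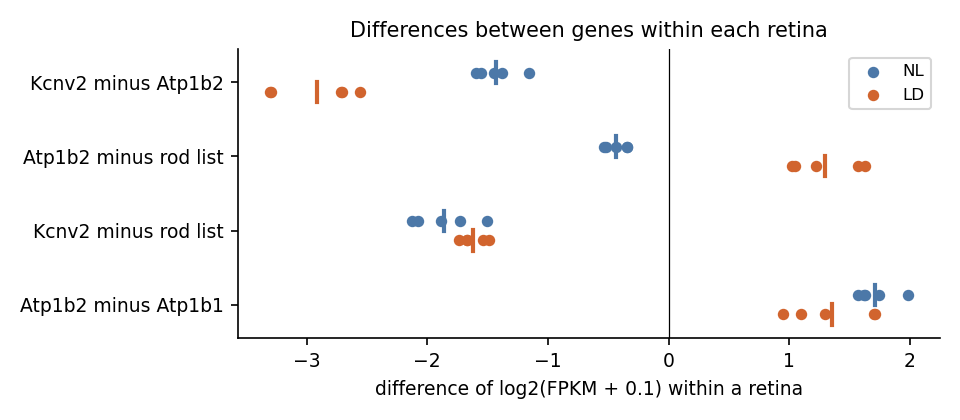
Differences of log2(FPKM + 0.1) between genes within each retina, NL in blue above and LD in orange below, with group means as vertical ticks. The groups separate for *Kcnv2* minus *Atp1b2* and *Atp1b2* minus the rod genes, and overlap for *Kcnv2* minus the rod genes and *Atp1b2* minus *Atp1b1*.

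The other measured beta subunits of the Na,K-ATPase did not pass the test in limma. *Atp1b1*, the beta1 subunit, was at 96.3 ± 8.52 and 89.1 ± 9.94 FPKM (adjusted p = 0.379), and *Atp1b3*, the beta3 subunit, at 29.8 ± 2.93 and 35.9 ± 7.30 FPKM (adjusted p = 0.175). *Atp1b2* minus *Atp1b1* went from 1.71 ± 0.17 to 1.35 ± 0.35, a difference of -0.36 with an interval of -0.78 to 0.09 (exact permutation p = 0.103, adjusted p = 0.120), so that their changes were not told apart. As a share of the FPKM of these 3 beta genes, *Atp1b2* went from 71.4% ± 1.49 to 64.4% ± 5.92 (SD, n = 5 each), a difference of -6.94 percentage points (interval -13.7 to -0.446, exact permutation p = 0.0238, the same after adjustment over the 2 share tests). The shares were 57.8%, 59.0% and 65.0% in LD-4, LD-6 and LD-8. In LD-1 and LD-7, at 70.4% and 69.9%, they were close to the NL retinas, which spanned 70.0% to 73.8%. *Atp1b2* remained the most abundant beta gene per length in every retina.

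The sum over the beta genes was added once the values of the single genes were known. It went from 441 ± 10.8 to 353 ± 15.1 FPKM with light damage (SD, n = 5 retinas). No LD retina, at 337 to 372 FPKM, reached the NL range of 428 to 451 FPKM (exact permutation p = 0.00794, adjusted over 3 subunit quantities 0.0119). Within the sum, *Atp1b2* went from 314 to 228 FPKM, *Atp1b1* from 96.3 to 89.1 and *Atp1b3* from 29.8 to 35.9. The test of the sum therefore largely repeats that of *Atp1b2* and says little about the other beta genes. Without the library factors the sums were 423 ± 8.95 and 372 ± 12.1 FPKM, again with no overlap.

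Of the 15 genes on the list of pump subunits and of FXYD regulators, which are small membrane proteins that tune the pump, 13 were tested. At an adjusted p under 0.01, 2 fell (*Atp1b2* among them, neither by 2-fold), 3 rose (*Fxyd5* and *Fxyd3* among them) and 8 did not pass. Those above 2-fold were 2, *Fxyd5* among them, against 4.13% higher above 2-fold and 9.30% higher at the adjusted p alone among all genes. *Fxyd5*, also called dysadherin, rose from 0.501 ± 0.115 to 1.23 ± 0.140 FPKM (SD, n = 5 each). Its log2 fold change was 1.16, but 0.57 with a pseudocount of 1, and its adjusted p in limma was 0.0126 with the close pairs averaged (1.04e-04 to 0.0303 across all alternatives). *Fxyd3* was under 1 FPKM in both groups. *Fxyd6* (6.08 ± 0.917 and 5.56 ± 0.707 FPKM) and *Fxyd7* (11.4 to 15.0 and 13.4 to 16.3 FPKM) are brain-type regulators and did not pass. The median log2 fold change of the 13 genes was 0.19, and that of all genes tested was -0.01.

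**Figure D4:**
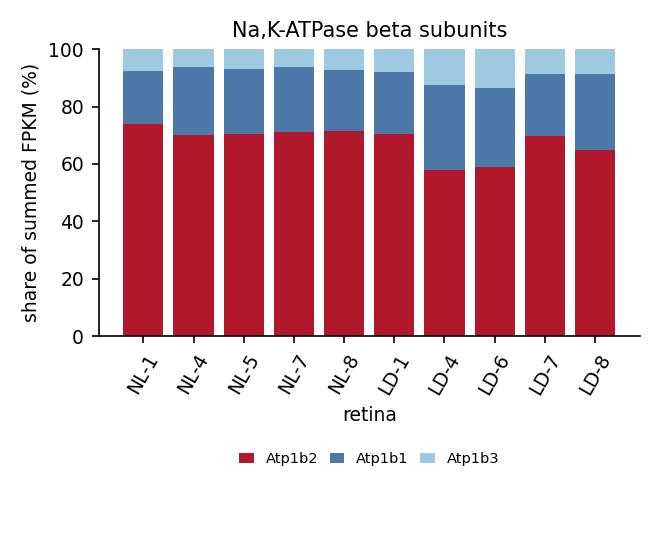
Share (%) of each beta subunit gene of the Na,K-ATPase in their summed FPKM in each retina, as stacked bars. *Atp1b2* holds 70.0% to 73.8% of the sum in NL and 57.8% to 70.4% in LD retinas.

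*Kcnv2* is 1 of 12 genes on the list of Kv2 channels and their modifier subunits, 11 of which were tested. At an adjusted p under 0.01, 3 fell (*Kcnv2* among them, and *Kcng2*, which was under 1 FPKM in both groups), 1 rose (*Kcng4*) and 7 did not pass, against 7.74% lower and 9.30% higher among all genes. *Kcng4*, another modifier of Kv2 channels, rose from 8.34 ± 1.92 to 20.8 ± 5.32 FPKM (SD, n = 5 each), or by 1.30 ± 0.20 (standard error) on the log2 scale, with an adjusted p of 8.24e-04 by limma. With the close pairs averaged it was at 1.12 and its adjusted p was 0.0177 (3.06e-04 to 0.0288 across all alternatives). Others above 1 FPKM were *Kcnb2*, the Kv2.2 channel, at 1.96 ± 0.116 and 1.65 ± 0.115 FPKM, and the modifiers *Kcnf1*, *Kcns1* and *Kcns2* at means of 1.41 to 2.07 FPKM, and these 4 did not pass. The median log2 fold change of the 11 genes was -0.14.

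A list of 20 genes for the ion fluxes of photoreceptors, which includes both genes and 2 genes of the rod list (*Cnga1* and *Cngb1*), places them among channels, exchangers and pumps. All 20 were tested, 14 fell at an adjusted p under 0.01, 9 of them more than 2-fold, 0 rose and 6 did not pass, with a median log2 fold change of -0.89. In 16 of the 20 every LD retina lay below every NL retina. Among all genes tested, 7.74% fell at the adjusted p, 2.37% also more than 2-fold, and 10.6% had no overlap in this direction. The list was drawn up with photoreceptor genes in mind and with results of these data known, so the counts describe it.

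The outer segment entry and exchange genes were at the lower end. *Cnga1* and *Cngb1*, the subunits of the rod cyclic nucleotide-gated channel, had log2 fold changes of -2.22 and -1.81, and *Slc24a1*, the rod sodium, calcium and potassium exchanger, of -2.17, so that *Kcnv2* at -1.96 was within their range. The cone channel subunits changed less. *Cngb3* fell by 0.75 on the log2 scale, and *Cnga3* at -0.71 did not pass (adjusted p = 0.0232 in limma), although it did without LD-8 at -0.86 (adjusted p = 0.00570) and with limma-voom on the reads (0.00989), with 0.00570 to 0.132 across all alternatives. *Slc24a2*, the cone exchanger, was at 8.85 ± 0.455 and 8.11 ± 0.462 FPKM and did not pass.

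Genes of the synaptic terminal and of other transport spread over the rest of the range. At the terminal, *Cacna1f*, the calcium channel that drives transmitter release, its regulator *Cabp4* and the chloride channel *Ano2* had log2 fold changes of -1.01, -1.23 and -0.98. The adjusted p of *Ano2* in limma was 0.00787, but it was 0.01 or more in 15 of 23 alternatives (range 0.00268 to 0.0342). *Cacna2d4*, an auxiliary calcium channel subunit, did not pass (adjusted p = 0.104). The transporters *Slc6a6*, for taurine, and *Slc4a7*, for sodium and bicarbonate, fell by 1.28 and 1.26 on the log2 scale. The calcium pumps *Atp2b1* (34.2 ± 0.739 and 37.4 ± 1.01 FPKM) and *Atp2b2* (15.2 ± 1.24 and 16.1 ± 1.65 FPKM) did not pass. *Atp2b1* did pass in limma, as higher, with each of the other scalings. It was at 0.26 without the library factors (adjusted p = 2.25e-04, range across all alternatives 2.25e-04 to 0.0889). With TPM it was at 0.23 (adjusted p = 6.89e-04) and with quantile normalization at 0.16 (adjusted p = 0.00385).

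**Figure D5:**
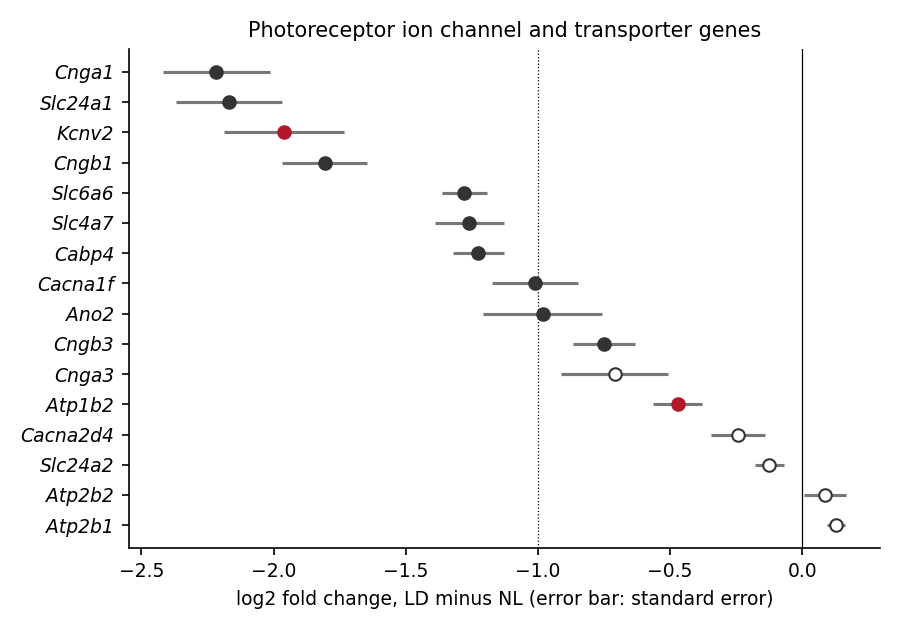
Log2 fold change of LD against NL with its standard error from limma for 16 of the 20 photoreceptor ion channel and transporter genes, filled where the adjusted p was under 0.01, with *Atp1b2* and *Kcnv2* in red and a dotted line at 2-fold lower. *Kcnv2* at -1.96 lies among *Cnga1*, *Slc24a1* and *Cngb1*, and *Atp1b2* at -0.47 lies between *Cnga3* and *Cacna2d4*.

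The genes with the profiles most like each of the 2 were sought among 12688 protein-coding genes of at least 1 FPKM in a group. The measure was the root mean square difference over the 10 retinas of log2 levels, each relative to the NL mean of its gene, and it is a description. Nearest to *Kcnv2* were *Spata1* (0.13), *Traf3ip3* (0.13), *Cngb1* (0.18), *Pde6b* (0.19) and *Gngt1* (0.19). *Pde6b* encodes a catalytic phosphodiesterase subunit of rods and *Gngt1* the gamma subunit of rod transducin. *Spata1* went from 18.8 ± 1.43 to 5.23 ± 1.84 FPKM and *Traf3ip3*, an adaptor that binds TRAF3, from 4.60 ± 0.438 to 1.16 ± 0.456 FPKM (SD, n = 5 each). Nearest to *Atp1b2* were *Smc4* (0.04), a condensin subunit, *Sgip1* (0.05), an endocytic adaptor, *Prkcz* (0.05), an atypical protein kinase C, *Poc5* (0.05), a centriole protein, and *Tsg101* (0.06), a subunit of the ESCRT machinery. These 5 had LD means of 70.8% to 74.4% of the NL means. By this measure *Atp1b2* and *Kcnv2* were 1.08 apart, *Atp1b2* being the 855th nearest to *Kcnv2* and *Kcnv2* the 11891st nearest to *Atp1b2*.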

How the data were processed

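The authors deposited 1 table of FPKM per gene for the 10 retinas. Paired reads of 150 bases came from a HiSeq instrument according to the methods, whereas the series text names a NovaSeq, and a company normalized the data. The submitters' processing notes list Bowtie2 2.0.6, TopHat2 2.0.9 and the build mm8, but 53462 of 54532 gene positions equal those of GENCODE M21 on GRCm38. The counting program and its use of strand are not given in the sources used here. Multiplied by gene length, 100% of values were whole multiples of 1 read (tolerance 0.01), which gave the reads and a library factor of 0.951 to 0.968 (NL) and 1.04 to 1.07 (LD).

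Genes reaching 0.1 FPKM in 5 or more retinas (24508) were fitted as log2(FPKM + 0.1) in limma 3.58.1 (R 4.3.3) with an intensity trend and no block, with Benjamini-Hochberg adjustment over all of them, after a test on simulated data. A fold change on this scale understates low genes. The study's thresholds were an adjusted p under 0.01 and 2-fold. Single values were compared by exact permutation tests in scipy 1.17.1 (Python 3.11.15, numpy 2.4.6, pandas 2.3.3, matplotlib 3.10.9). Intervals of 95% hold the shifts that the exact test does not refuse at 0.05.

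Named were the 2 genes, genes of 3 pathway lists and the rod list with at least 1 FPKM in a group, and the 5 nearest profiles of each gene. Some genes of these lists, and comparisons that need them, are not reported here. Members, lists, tests and the alternatives in the closing section were chosen with earlier results of these data known. Averaging close pairs in the comparisons within a retina, and the beta subunit sum, were added after the values were seen. The paper calls the retinas biological replicates. If the close pairs are not independent, p-values are too small.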

Additional observations from a re-analysis of the deposited data

Results flagged for a closer look

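Among 92 groups of 5 values, 1 had a retina set apart from the other 4 by more than the usual limit for such gaps, where chance (about 1 group in 20) would give 4.6. It was NL-8, the most deeply sequenced retina. *Pde6g*, a rod phosphodiesterase subunit, was lowest there at 416 FPKM, while the other NL retinas had 533 to 567 FPKM. *Atp1b2* and *Kcnv2* themselves had no such retina in either group.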

How the results depend on the processing

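*Kcnv2* kept its direction, a limma adjusted p below 0.01 and a fall of more than 2-fold in all 23 alternatives, and *Atp1b2* kept its direction in all 23. The adjusted p of *Atp1b2* was 0.01 or more with TPM (-0.37), quantile normalization (-0.24), library factors removed (-0.34), the close pairs averaged (-0.47), and without NL-1 or NL-5 (range with each retina left out -0.52 to -0.42). The replicate numbers 1, 4, 7 and 8 occur in both groups. The deviations of same-numbered retinas correlated only at -0.0893 to 0.0656, and NL-7 was closest to LD-8 (0.107). The labels do not say whether equal numbers mark a pair, and these correlations cannot exclude it. With the number as a block over these 8 retinas, *Atp1b2* was at -0.42 (adjusted p = 0.0491), and without the block at -0.42 (adjusted p = 0.0243), so on these 8 retinas it missed 0.01 with or without the block. The number of genes changed, 1595 at both thresholds, was 816 with a pseudocount of 1, 808 with the replicate block (1182 for the same 8 retinas without it) and 6818 at an adjusted p under 0.05 with no minimum fold, and 1379 to 1603 with each retina left out. *Kcnv2* minus the rod genes ranged from 0.18 to 0.33 with each retina left out. The other differences and the *Atp1b2* share kept their side of 0.05 in the alternatives with a test. With the close pairs averaged, 4 NL and 3 LD samples remain and the exact test cannot go below 0.0571, so only values are given, and the *Atp1b2* share then differed by -7.02 percentage points. Of 1058 alternatives for the 46 other genes, 0 turned a call around, 39 lost one and 14 gained one.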
